A study of Mus musculus with 6 samples.

Results

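Microglia and macrophage genes were examined in RNA of cells sorted as neurons from mouse cortex around an infarct. The 41 genes were taken by symbol as markers, receptors and regulators of brain macrophages. Genes of complement, chemokines and integrins were left out. All 41 were found among the 24419 symbols of the expression table, and 31 had a mean of at least 1 CPM (reads scaled to library size, with the factor the authors applied to each library) over all 6 libraries, as had 14523 genes in all. Cells came from male C57BL/6N mice, 4 days after 60 min of transient middle cerebral artery occlusion, which every animal of both groups underwent. One group received 15-HETrE, a hydroxy fatty acid derived from dihomo-gamma-linolenic acid, at 600 ng in 150 µL of phosphate-buffered saline, given into a vein at 24, 48 and 72 h after onset. The other group received vehicle. Peri-infarct tissue was digested with pronase for 75 min, and cells were kept that carried Thy1 and lacked ACSA2, CD31, CD45 and O4. The CD45 gate leaves out leukocytes, microglia included, so the genes described here belong mainly to cells that the sort was meant to remove. Each group had 3 libraries. The labels do not say whether a library holds 1 animal or several, so the p-values measure the spread between libraries, which may be technical.

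Microglia are the resident macrophages of the brain. They depend on signalling through the receptor Csf1r and on the transcription factors PU.1 (encoded by Spi1), Irf8, Runx1 and Sall1. In healthy tissue they survey their surroundings with purinergic receptors such as P2ry12 and express a set of genes called homeostatic. After injury or uptake of lipid and myelin debris they are known to reduce this set and to raise Spp1, Gpnmb, Lpl, Cst7, Clec7a, Cd63 and Lgals3, in a switch that involves Trem2 and its adaptor Tyrobp. Several genes of the second set are also expressed by fibroblasts, oligodendrocyte precursors or neurons.

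Promoter sequences of 4 members are shown because their transcripts represent the patterns described below: P2ry13 and Laptm5 were high in the combined libraries of both groups, Spp1 was the most abundant member, and Siglech was the only tested member whose 15-HETrE libraries all stood above the vehicle libraries. Each is the RefSeq window of 300 bases (GRCm38.p6), from 250 before to 50 after an annotated start, written 5′ to 3′ on the gene's strand. Capitals mark the letters GAGGAAG on either strand, bound by PU.1, and TCANNTGA. The latter is a loose form of the sites bound by factors of the MiT/TFE family that control lysosomal genes. Each window shown holds 1 match, so none overlap. The window of P2ry13 is chr3:59210833-59211132 on the minus strand, that of Laptm5 chr4:130913066-130913365 on the plus strand, that of Spp1 chr5:104434861-104435160 on the plus strand and that of Siglech chr7:55767934-55768233 on the plus strand.
P2ry13: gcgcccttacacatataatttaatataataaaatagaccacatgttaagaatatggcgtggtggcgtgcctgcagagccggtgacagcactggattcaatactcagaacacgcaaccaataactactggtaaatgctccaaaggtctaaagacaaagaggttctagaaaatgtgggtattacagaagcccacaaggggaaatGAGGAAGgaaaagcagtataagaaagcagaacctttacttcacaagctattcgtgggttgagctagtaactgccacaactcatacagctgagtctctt
Laptm5: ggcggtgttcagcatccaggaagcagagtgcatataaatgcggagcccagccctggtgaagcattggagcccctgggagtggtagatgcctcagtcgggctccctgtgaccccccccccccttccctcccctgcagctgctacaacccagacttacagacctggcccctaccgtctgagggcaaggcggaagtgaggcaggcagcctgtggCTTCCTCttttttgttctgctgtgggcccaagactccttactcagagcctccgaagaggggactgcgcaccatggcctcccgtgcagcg
Spp1: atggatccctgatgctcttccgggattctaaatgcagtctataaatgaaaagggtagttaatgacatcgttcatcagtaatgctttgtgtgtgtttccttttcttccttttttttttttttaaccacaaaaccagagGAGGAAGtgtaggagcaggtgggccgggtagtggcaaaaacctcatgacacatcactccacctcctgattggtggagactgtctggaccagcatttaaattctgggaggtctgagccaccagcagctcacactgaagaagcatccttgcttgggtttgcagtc
Siglech: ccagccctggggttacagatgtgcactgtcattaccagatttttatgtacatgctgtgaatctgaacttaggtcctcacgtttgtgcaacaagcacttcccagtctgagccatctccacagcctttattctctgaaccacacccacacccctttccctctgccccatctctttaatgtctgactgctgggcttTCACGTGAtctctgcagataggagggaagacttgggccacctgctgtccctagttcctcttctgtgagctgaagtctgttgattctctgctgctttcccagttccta
The PU.1 letters began at position -48 in P2ry13, -39 in Laptm5 and -113 in Spp1, counted from the start at +1, and the TCANNTGA letters at -57 in Siglech. Windows were found for 30 of the 41 members, 37 windows in all, and 12 of these (32.4%) held GAGGAAG, against 13.6% of the 32851 windows of all genes. The 12 windows belong to 11 genes, since overlapping windows of Fcgr3 held the same site. A further window of Spp1, not shown, held no match. Of other members high in the combined libraries of both groups, Fcrls and Trem2 had windows with GAGGAAG. The windows of P2ry12, Irf8 and Ly86 held no match. All 4 windows shown hold a match, so they do not stand for the members as a set. A link between these letters and the patterns was not tested. The letters TGANTCA, bound by AP-1, stood in 4 of the 37 windows (10.8%, against 7.81% of all) and TCANNTGA in 5 (13.5%, against 8.39%). Of these 5, the windows of Siglech and Runx1 read TCACGTGA, and those of Cst7, Lgals3 and Trem2 had other middle letters. These matches describe sequence and do not show that a factor was bound.

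The libraries held 5405245 to 22558400 reads assigned to genes. Those named vehicle 1, vehicle 2 and 15-HETrE 1 share a prefix in the column names, 15-HETrE unnumbered has a second prefix, and 1 library of each group is named combined, a word the sources used here do not explain. Values by library follow the order vehicle 1, vehicle 2, vehicle combined and then 15-HETrE 1, 15-HETrE unnumbered, 15-HETrE combined. Mean log2 levels of 7 pan-neuronal markers were 7.91, 7.14 and 7.40 in vehicle and 8.70, 8.07 and 8.56 in 15-HETrE, without overlap. The level is log2(CPM + 1) throughout. Of the 7 differences, 6 were above 0 and 1 below (median 1.00), and 0 were called by limma. At an unadjusted limma p under 0.05, 4 were higher, against 4.27% of all genes. The groups of 2, Rbfox3 and Nefl, did not overlap, against 6.84% of all genes on the higher side. DESeq2 called 1 higher, Nefl (adjusted p 0.00627), where it called 0.241% of all genes higher. The part of neuronal content in the results below was not tested. Despite the label of neurons, oligodendrocyte markers were higher than pan-neuronal ones in every library, at 9.82 to 11.01 over 6 genes. Fibroblast markers varied widely, with mean log2 levels over 8 genes of 9.95, 9.84 and 3.75 in vehicle 1, vehicle 2 and vehicle combined and 5.11, 7.69 and 3.46 in 15-HETrE 1, unnumbered and combined. Pericyte and smooth muscle markers moved the same way, at 6.72, 6.90 and 5.71 against 4.50, 5.95 and 5.20 over 5 genes, with all 5 differences below 0 (median -1.17) and no overlap for 3. The 8 fibroblast genes include Pdgfra, also counted among the oligodendrocyte precursor markers. It stood at 1382 CPM in vehicle combined and 1228 CPM in 15-HETrE combined, where the other fibroblast genes did not exceed 31.8 CPM. Astrocyte markers were highest in the combined libraries, at 6.05, 5.37 and 8.38 in vehicle and 6.91, 6.22 and 9.39 in 15-HETrE over 7 genes. Ptprc, which encodes the CD45 antigen of the gate, stood at 0 to 1.30 CPM in 5 libraries and at 6.22 CPM in 15-HETrE combined. Blood leukocyte markers were near 0: the 8 monocyte and neutrophil genes summed to 1.80 to 3.51 CPM in vehicle and 0 to 1.23 CPM in 15-HETrE, and 7 of 9 lymphocyte genes had no read anywhere. No read in a library allows at most 0.135 to 0.540 CPM, the worth of 3 counts, and this limit covers counting error only.

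Most microglia and macrophage genes were present at trace level, and no member passed the test over all genes. Of the 41 genes, 18 had at least 3 reads in all 6 libraries and 21 had no read in at least 1. Their median level was 0.945 to 4.86 CPM in the vehicle libraries and 1.32 to 2.92 CPM in the 15-HETrE libraries. Members with a mean of at least 20 CPM numbered 5, namely Spp1, Cd63, Runx1, Lpl and Sall1. Per kb of exon, Spp1 had a mean level of 385 CPM and Cd63 of 42.8 CPM, and every other member had 10.6 CPM per kb or less.

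**Figure D1:**
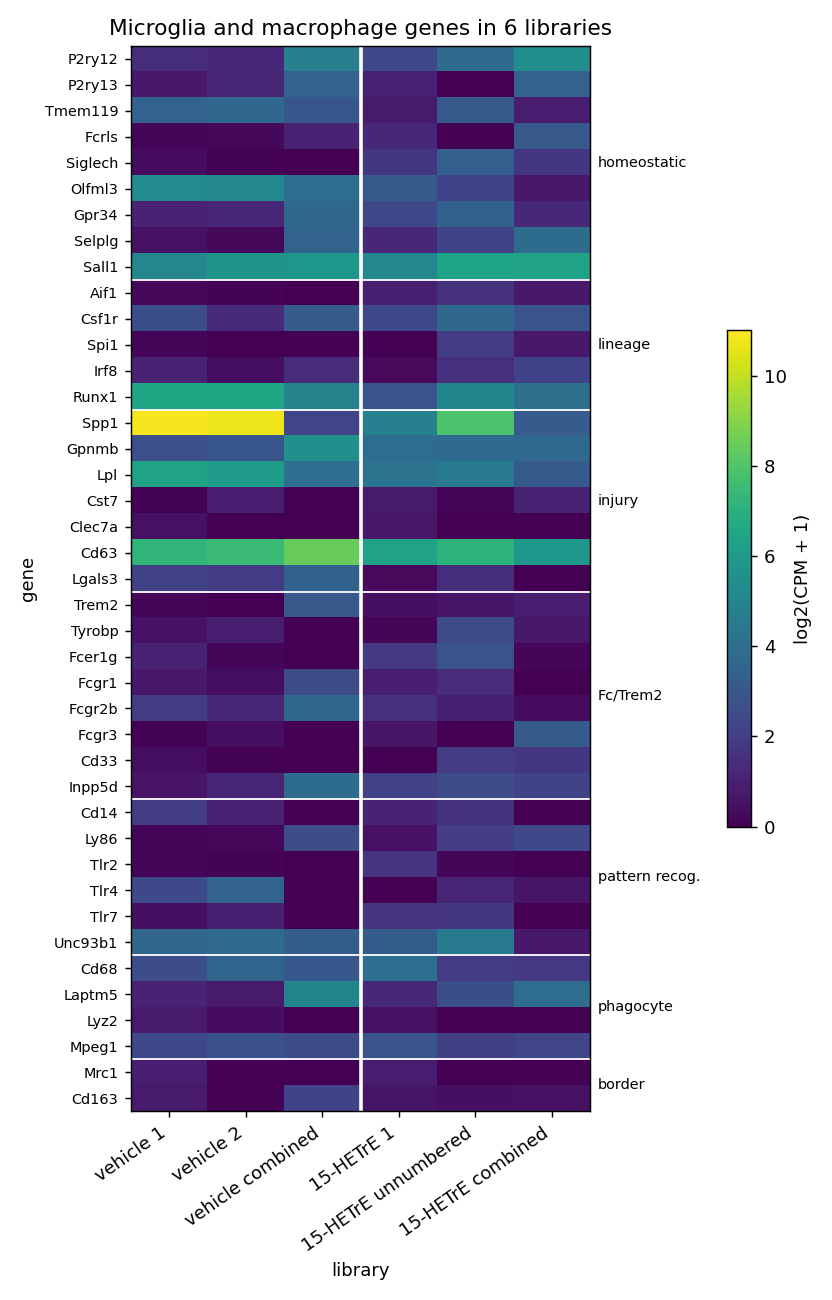
Level of each of the 41 genes (rows, grouped by role) in each of the 6 libraries (columns), as log2(CPM + 1) on the colour scale. Spp1, at 1825 and 1709 CPM in vehicle 1 and vehicle 2, is the brightest row, and most other rows are dark in most libraries, with a raised set in the combined libraries.

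Of the 31 members tested with limma, 0 were called higher and 0 lower after Benjamini-Hochberg adjustment over 14523 genes (threshold 0.05), where 0.0% of all genes were called in each direction; the smallest adjusted p of a member was 0.394. At an unadjusted p under 0.05, 1 member was higher and 6 were lower, together 22.6% of those tested, against 9.5% of all genes (4.27% higher and 5.23% lower). The groups did not overlap for 4 of the 31 (12.9%), Siglech on the higher side and Olfml3, Cd63 and Lgals3 on the lower, against 15.2% of all genes (6.84% higher and 8.32% lower). edgeR's quasi-likelihood test on recovered reads called 0 members and 0.0% of all genes, with 5 members (and 8.48% of all genes) at an unadjusted p under 0.05. DESeq2 called 1 member higher and 1 lower, where it called 0.241% and 0.895% of all genes. For Spp1 it gave a log2 difference of -3.69 but no adjusted p, so Spp1 could not be called by it. In limma 0 members were called without vehicle combined (0.31% of all genes lower), without both combined libraries (0.516% lower) and with the name prefix as a batch term (0.00689% higher and 0.0482% lower). With library weights in limma, 1 member was called higher and 8 lower, where 7.29% of all genes were called higher and 9.41% lower. The member called higher was Siglech, and those called lower were Spp1, Lpl, Cd63, Lgals3, Runx1, Olfml3, Tmem119 and Tlr4. These weights gave vehicle combined the least influence. Over the tested members 15 log2 differences (15-HETrE minus vehicle) were above 0 and 16 below, beside 51.0% and 49.0% of all genes. Their median was -0.11, beside 0.02 over all genes, and turned to 0.52 without vehicle combined. Of the 31 tested, 9 had a mean under 1 CPM in one group and passed the filter only through the other, so the filter favoured their direction: Siglech, Fcrls, Tyrobp, Fcer1g and Fcgr3 through 15-HETrE, and Lgals3, Trem2, Fcgr1 and Tlr4 through vehicle. Over the other 22, 10 differences were above 0 and 12 below, 5 had an unadjusted p under 0.05, and the groups of 2 did not overlap. The counts and medians over tested members given below are descriptions and support nothing further. In bulk RNA, fewer cells of a type and less RNA per cell cannot be told apart, and this holds for every difference below.

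**Figure D2:**
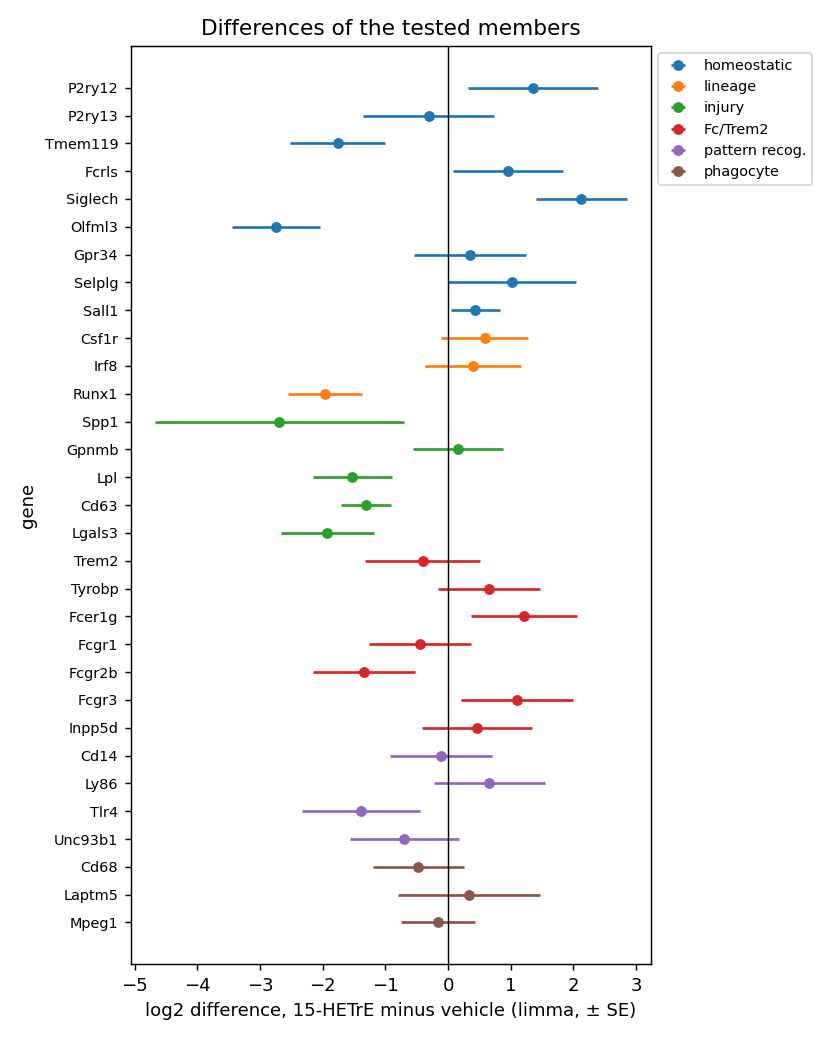
Log2 difference of each of the 31 tested members, 15-HETrE minus vehicle, as the limma estimate with its standard error (bars), coloured by role. Differences run from -2.75 for Olfml3 to 2.13 for Siglech, and of the 5 tested injury-associated genes Gpnmb alone lies above 0 in limma, though below 0 with edgeR (-0.45) and DESeq2 (-0.50).

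Homeostatic microglia genes gave 6 differences above 0 and 3 below among 9, all of which were tested, with a median of 0.43 (1.21 without vehicle combined, 0.08 with the name prefix as a batch term). Without Siglech and Fcrls, which passed the filter only through 15-HETrE, 4 were above 0 and 3 below. Sall1, a zinc-finger transcription factor that maintains microglial identity and is also expressed in neural precursors, was the most abundant at 32.7, 50.2 and 54.9 CPM (vehicle) and 33.8, 83.3 and 79.9 CPM (15-HETrE). Its groups overlapped, and the log2 difference was 0.43 (SE 0.39, adjusted p 0.748, limma). Unlike the restricted microglial genes, Sall1 was well covered everywhere, with 305 to 1396 reads.

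Olfml3, which encodes a secreted matrix protein that microglia and mesenchymal cells both make, stood at 38.7, 32.7 and 14.9 CPM (vehicle) and 8.06, 3.64 and 0.676 CPM (15-HETrE). All 3 vehicle libraries lay above all 3 15-HETrE libraries. The means were 28.8 ± 12.4 and 4.12 ± 3.71 CPM (SD, n = 3 per group), a log2 difference of -2.75 (SE 0.70, adjusted p 0.394, limma). DESeq2 on recovered reads called it lower (adjusted p 0.0372). The difference was -2.01 among libraries of the first prefix and -3.25 between the combined ones, where fibroblast markers stood at means of 9.95 and 9.84 against 5.11, and of 3.75 against 3.46; their part in the result was not tested. Olfml3 lies on chromosome 3 from 103722222 to 103738001 (GRCm38).

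P2ry12, the purinergic receptor that directs microglial processes towards ATP, stood at 1.68, 1.44 and 27.0 CPM (vehicle) and 4.01, 13.5 and 41.0 CPM (15-HETrE). The combined library was the highest of each group, and the groups overlapped. The log2 difference was 1.35 (SE 1.04, adjusted p 0.700, limma), 0.97 among libraries of the first prefix and 0.58 between the combined ones. P2ry12 lies on chromosome 3 from 59216272 to 59262871 (GRCm38), and with P2ry13 it sits inside the gene Med12l on the opposite strand. The sources used here do not say whether counting used strand, so reads from unspliced Med12l transcripts cannot be told apart from theirs. Med12l itself stood at 44.6 to 67.2 CPM in vehicle, lowest in vehicle combined, and 84.2 to 101 CPM in 15-HETrE, without overlap. The part of its unspliced transcripts was not tested.

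Tmem119, a membrane protein used as a marker of microglia and also made by bone-forming cells, stood at 9.91, 11.7 and 6.65 CPM (vehicle) and 0.728, 7.70 and 0.811 CPM (15-HETrE). The groups overlapped through 15-HETrE unnumbered alone. Its log2 difference was -1.76 (SE 0.76, unadjusted p 0.0418, adjusted p 0.515, limma), opposite in sign to that of P2ry12.

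Siglech, a sialic acid-binding receptor of microglia, had 6, 1 and 0 reads in the vehicle libraries and 53, 149 and 17 reads in the 15-HETrE libraries. These are 0.280, 0.0450 and 0 CPM against 2.41, 8.89 and 2.30 CPM, with no overlap. It passed the filter on low values only through the 15-HETrE libraries. The log2 difference was 2.13 (SE 0.73, unadjusted p 0.0150, adjusted p 0.460, limma), 1.56 among libraries of the first prefix and 1.72 between the combined ones. DESeq2 called it higher (adjusted p 0.0426). The other 4 homeostatic genes, P2ry13, Fcrls, Gpr34 and Selplg, ran from 0 CPM in 15-HETrE unnumbered (P2ry13 and Fcrls) to 13.8 CPM in 15-HETrE combined (Selplg), with log2 differences of -0.31 (P2ry13, which turned to 0.52 without vehicle combined) to 1.02 (Selplg) and overlapping groups. Gpr34, an orphan-family receptor for lysophosphatidylserine, lies inside Cask on the opposite strand, with the same limit on strand.

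Lineage genes were sparse apart from Runx1. Csf1r, the receptor for colony-stimulating factor on which microglia depend, stood at 5.33, 1.57 and 8.09 CPM (vehicle) and 4.23, 11.9 and 6.35 CPM (15-HETrE), a log2 difference of 0.58 (SE 0.69, adjusted p 0.807, limma). It shares 873 exonic bases with Hmgxb3 on the opposite strand, a gene at 25.9 to 52.6 CPM. Runx1, a transcription factor of blood and microglial development that fibroblasts also express, stood at 86.6, 88.9 and 29.7 CPM (vehicle) and 6.37, 32.3 and 15.5 CPM (15-HETrE). Vehicle combined lay just under 15-HETrE unnumbered, so the groups overlapped. The log2 difference was -1.96 (SE 0.60, unadjusted p 0.00794, adjusted p 0.422, limma), -3.59 among libraries of the first prefix and -0.89 between the combined ones. Like Spp1 and Lpl, described next, Runx1 was highest in vehicle 1 and vehicle 2, the libraries with the highest fibroblast and pericyte markers. Pdgfrb, a receptor of pericytes and fibroblasts, measured 349, 324 and 111 CPM (vehicle) and 23.2, 86.4 and 78.4 CPM (15-HETrE), and DESeq2 called it lower (adjusted p 0.0180). The part of these cell types in the results for Runx1, Spp1 and Lpl was not tested.

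Spi1 and Aif1 were close to absent and Irf8 was low, unlike Runx1 and Sall1. Spi1, encoding PU.1, had no read in vehicle 2, vehicle combined and 15-HETrE 1 and at most 49 reads, 2.92 CPM, in 15-HETrE unnumbered. Aif1, encoding the microglial antigen Iba1, had 4, 2 and 0 reads in vehicle and 21, 33 and 5 reads in 15-HETrE. It was below the filter and was not tested. Irf8, a partner of PU.1, had 5 to 32 reads and stood at 0.228 to 3.65 CPM over the 6 libraries with overlapping groups.

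Lipid- or injury-associated genes were lower in 15-HETrE for 4 of the 5 tested, with a median of -1.53, but none was called in the main test. Limma with library weights called Spp1, Lpl, Cd63 and Lgals3 lower (adjusted p 0.000893, 0.00148, 0.00568 and 0.0264), where it called 9.41% of all genes lower. Without Lgals3, which passed the filter only through vehicle, 3 of 4 were lower. Spp1, which encodes the secreted matrix protein osteopontin, stood at 1825, 1709 and 3.96 CPM (vehicle) and 26.5, 234 and 7.84 CPM (15-HETrE). Vehicle 1 and vehicle 2 were high and vehicle combined was the lowest of all 6 libraries. Spp1 alone made up 80.1% and 77.7% of the summed CPM of all 41 members in vehicle 1 and vehicle 2, against 0.568% in vehicle combined and 2.52% to 35.7% in 15-HETrE. The log2 difference was -2.70 (SE 1.99, adjusted p 0.695, limma). It was -6.01 among libraries of the first prefix and 0.83, of opposite sign, between the combined ones, and -5.52 without vehicle combined. Spp1 was high in the same libraries as the fibroblast markers, as given above, and their part was not tested, as said for Runx1. Spp1 lies on chromosome 5 from 104435118 to 104441050 (GRCm38).

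**Figure D3:**
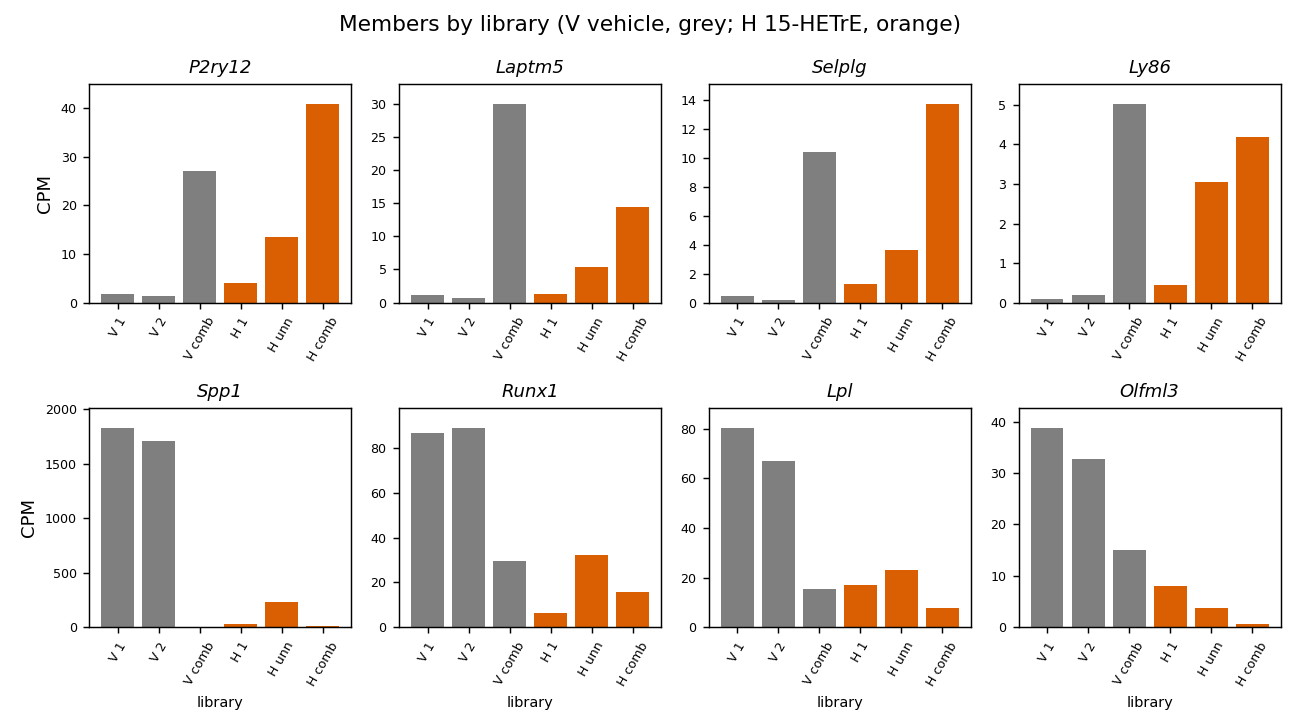
CPM of 8 members in each of the 6 libraries (V vehicle, grey bars; H 15-HETrE, orange bars; comb combined, unn unnumbered), each panel on its own axis from 0. The upper 4 genes are highest in the combined library of each group, and the lower 4 are highest in vehicle 1 and vehicle 2; the genes were picked for this figure after their values were seen.

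Cd63, a tetraspanin of lysosomes and exosomes found in most cell types, stood at 148, 178 and 349 CPM (vehicle) and 78.9, 136 and 55.1 CPM (15-HETrE). The groups did not overlap, with 15-HETrE unnumbered close under vehicle 1. The means were 225 ± 109 and 90.1 ± 41.6 CPM (SD, n = 3 per group), a log2 difference of -1.31 (SE 0.40, unadjusted p 0.00800, adjusted p 0.422, limma). It was -1.03 among libraries of the first prefix and -2.64 between the combined ones. Its highest library was vehicle combined. There oligodendrocyte precursor and astrocyte markers were also the highest of the vehicle libraries (mean log2 levels of 9.43 and 8.38) and fibroblast markers the lowest (3.75). In 15-HETrE combined these markers ranked the same way within their group (9.04, 9.39 and 3.46), but Cd63 was at its lowest, 55.1 CPM. Pdgfra is counted among both the precursor and the fibroblast markers. The part of these cell types in the result was not tested.

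Lpl, the lipoprotein lipase that releases fatty acids from lipoproteins, stood at 80.2, 67.1 and 15.3 CPM (vehicle) and 17.0, 23.0 and 7.70 CPM (15-HETrE). Vehicle combined lay among the 15-HETrE libraries. The log2 difference was -1.53 (SE 0.63, unadjusted p 0.0360, adjusted p 0.504, limma). Lgals3, which encodes the lectin galectin-3 of phagocytes and fibroblasts, had 72, 65 and 54 reads in vehicle (3.37, 2.92 and 9.71 CPM) and 5, 29 and 0 reads in 15-HETrE (0.228, 1.73 and 0 CPM). It passed the filter only through the vehicle libraries. Its groups did not overlap, and the log2 difference was -1.92 (SE 0.75, unadjusted p 0.0271, adjusted p 0.487, limma).

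The injury-associated genes most restricted to microglia were the lowest of the list. Clec7a, the receptor dectin-1, had 9 reads in vehicle 1, 14 in 15-HETrE 1 and none elsewhere. Cst7, encoding the protease inhibitor cystatin F, did not exceed 1.08 CPM. Both were below the filter. Gpnmb, a lysosomal glycoprotein, stood at 5.38, 6.66 and 44.4 CPM (vehicle) and at a near constant 14.9, 13.2 and 12.7 CPM (15-HETrE), with means of 18.8 and 13.6 CPM. Its difference on the log2 scale was 0.16 (SE 0.72, adjusted p 0.954, limma) and turned to -0.45 with edgeR, -0.50 with DESeq2, -0.35 without vehicle 1 and -0.22 without vehicle 2.

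The homeostatic list was set against the injury-associated list within each library. As means of log2(CPM + 1), the 9 homeostatic genes stood at 2.01, 2.07 and 3.26 in vehicle 1, vehicle 2 and vehicle combined and 2.12, 2.73 and 2.97 in 15-HETrE 1, unnumbered and combined. The 7 injury-associated genes stood at 4.25, 4.30 and 3.39 in vehicle and 3.01, 3.57 and 2.42 in 15-HETrE. Homeostatic minus injury-associated was thus -2.24, -2.23 and -0.13 in vehicle and -0.89, -0.85 and 0.55 in 15-HETrE, and the groups overlapped through vehicle combined. The group means of this difference were -1.53 ± 1.21 and -0.40 ± 0.82 (SD, n = 3 per group), 1.14 apart; the gap was 1.34 among libraries of the first prefix and 0.68 between the combined ones. Most of it lay on the injury side, with group differences of -0.98 for the injury-associated mean and 0.16 for the homeostatic mean. Without Spp1 the gap was 0.85, with 0.55 among libraries of the first prefix and 0.98 between the combined ones. These are descriptions, since both lists were set with earlier results known, and the injury-associated level rests mainly on genes that other cell types share.

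**Figure D4:**
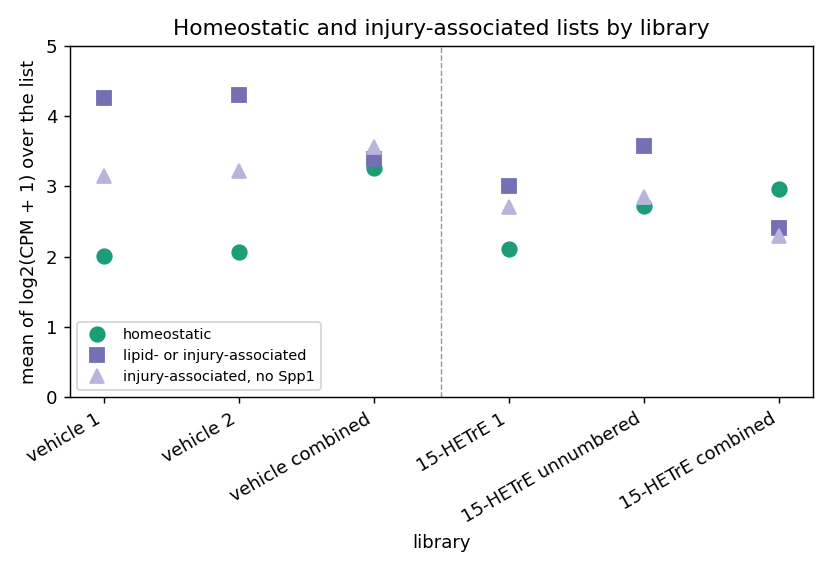
Mean of log2(CPM + 1) over the 9 homeostatic genes (circles), the 7 lipid- or injury-associated genes (squares) and the latter without Spp1 (triangles) in each library, with vehicle left of the dashed line. The lists are farthest apart in vehicle 1 and vehicle 2, by 2.24 and 2.23, nearly meet in vehicle combined, and are in the opposite order in 15-HETrE combined.

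Fc receptors, Trem2 and their adaptors and inhibitors were at trace level, with 7 of 8 tested, 4 differences above 0, 3 below and none called. Of the 7, 5 passed the filter through 1 group only (Tyrobp, Fcer1g and Fcgr3 through 15-HETrE, Trem2 and Fcgr1 through vehicle), so this tally says little of direction. Fcgr2b, the inhibitory receptor for immunoglobulin G, stood at 2.99, 1.30 and 12.2 CPM (vehicle) and 2.00, 0.955 and 0.270 CPM (15-HETrE). Vehicle combined was high and the groups overlapped, with a log2 difference of -1.34 (SE 0.81, adjusted p 0.627, limma). Inpp5d, the lipid phosphatase SHIP1 that damps signals from these receptors, stood at 0.514, 1.17 and 13.7 CPM (vehicle) and 3.46, 4.83 and 3.78 CPM (15-HETrE). Its log2 difference was 0.46 (SE 0.88, adjusted p 0.889, limma) and turned to -0.18 without vehicle 1 and to -0.32 with edgeR.

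Trem2, the lipid-sensing receptor of the injury response, had 2, 0 and 41 reads in vehicle and 8, 10 and 6 in 15-HETrE, so nearly all of its vehicle reads came from vehicle combined. Its signalling adaptor Tyrobp went another way, with 10, 20 and 0 reads in vehicle and 3, 78 and 5 in 15-HETrE. The adaptor Fcer1g and the activating receptors Fcgr1 and Fcgr3 ranged from 0 to 7.57 CPM, and the inhibitory receptor Cd33, below the filter, from 0 to 2.86 CPM. Each of these had no read in at least 1 library. Fcgr2b and Fcgr3 are paralogs with similar extracellular parts, so reads could be split between them.

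Pattern recognition genes had 4 of 6 members tested, 1 difference above 0 and 3 below, among them Tlr4, which passed the filter only through vehicle. Unc93b1, the chaperone that carries Toll-like receptors to endosomes, was the most abundant at 11.5, 12.8 and 8.45 CPM (vehicle) and 8.38, 23.1 and 0.676 CPM (15-HETrE). The 15-HETrE libraries held both the highest and the lowest value, and the log2 difference of -0.70 (SE 0.87, adjusted p 0.817, limma) turned to 0.35 without 15-HETrE combined. Tlr4, the receptor for lipopolysaccharide, stood at 4.35, 10.3 and 0 CPM (vehicle) and 0, 1.19 and 0.541 CPM (15-HETrE) (log2 difference -1.39, SE 0.94, adjusted p 0.661, limma). Vehicle 1 and vehicle 2 held most of its reads, as for Spp1. Cd14, its co-receptor, and Ly86, which pairs with a relative of Tlr4, ran from 0 (Cd14) to 5.04 CPM (Ly86), and Tlr2 and Tlr7, below the filter, reached at most 2.39 CPM.

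Phagocyte genes gave 1 difference above 0 and 2 below among 3 tested. Laptm5, a lysosomal membrane protein of blood-derived cells and microglia, stood at 1.12, 0.720 and 30.03 CPM (vehicle) and 1.32, 5.31 and 14.5 CPM (15-HETrE). As for P2ry12, the combined library was the highest of each group. The log2 difference was 0.33 (SE 1.13, adjusted p 0.944, limma), with -0.41 without vehicle 2 and 1.67 without vehicle combined. Cd68, a lysosomal glycoprotein of phagocytes, stood at 5.05, 10.5 and 7.19 CPM (vehicle) and 15.0, 2.75 and 2.57 CPM (15-HETrE), a log2 difference of -0.47 (SE 0.72, adjusted p 0.854, limma).

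Mpeg1, encoding the pore-forming perforin-2, was the steadiest of the phagocyte genes, at 3.22 to 5.96 CPM over all 6 libraries. Lyz2, lysozyme of myeloid cells, had no read in 3 libraries and at most 16 reads. Border macrophages live in the meninges and around vessels, and the 2 genes listed for them were sparse. Mrc1, the mannose receptor, had 19 reads in vehicle 1, 19 in 15-HETrE 1 and none elsewhere. Cd163, the scavenger receptor for haemoglobin, had 16, 0 and 20 reads in vehicle (0.748, 0 and 3.60 CPM). In 15-HETrE it had 12, 6 and 3 reads (0.546, 0.358 and 0.405 CPM). Neither passed the filter.

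A set of members followed the combined libraries in both groups. Of the 31 tested, 8 (25.8%) were highest in the combined library of each group, namely P2ry12, P2ry13, Fcrls, Selplg, Irf8, Trem2, Ly86 and Laptm5, against 16.4% of all genes tested. Of these, P2ry13, Fcrls, Irf8, Trem2 and Ly86 reached the filter of 1 CPM only through the combined libraries. The filter favoured this pattern for them, so the share is a description only. In vehicle alone the combined library was highest for 17 members (54.8%), against 37.6% of all genes. It was the lowest of the vehicle libraries for 12 tested members, among them Tmem119, Siglech, Tyrobp, Fcer1g, Fcgr3, Cd14 and Tlr4. In 15-HETrE it was highest for 9 of the 31, a smaller share than the 34.3% of all genes. Trem2 counted there with only 6 reads (0.811 CPM). The combined libraries were the shallowest, with 5405245 reads in vehicle and 7993084 in 15-HETrE, against 16218335 or more elsewhere. They also had the most members without a read, tested or not: 15 in vehicle combined and 8 in 15-HETrE combined, against 0 to 6 elsewhere. The pattern thus held for some members and was not a rise of the whole list. Selplg, the ligand for selectins, had 10.4 CPM in vehicle combined and 0.421 and 0.180 CPM in vehicle 1 and vehicle 2. Vehicle combined exceeded the higher of the other vehicle libraries 24.8-fold for Selplg, 26.8-fold for Laptm5 and 16.0-fold for P2ry12. These libraries were also the highest of their group for all 7 astrocyte markers, and the part of other cell types in this pattern was not tested.

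Other genes of microglia and macrophages, not among the 41, were tested in the same fit. Of 16 identity genes, 14 were tested, 8 differences were above 0 and 6 below with a median of 0.18, and 0 were called; 9 of the 14 were highest in both combined libraries. The most abundant was Mertk, an engulfment receptor also made by astrocytes, at 15.3 to 117 CPM in vehicle and 16.3 to 115 CPM in 15-HETrE. Of 15 further genes of the disease-associated and lipid-handling state, 11 were tested, 2 differences were above 0 and 9 below with a median of -0.13, and 0 were called by limma. DESeq2 called 1, Plin2, which coats lipid droplets and was singled out for this call: 114, 110 and 19.2 CPM (vehicle) against 7.51, 14.2 and 6.76 CPM (15-HETrE), adjusted p 0.000549. The most abundant members are shared by many cell types: Apoe at 188 to 593 and 253 to 1345 CPM, Ctsb at 479 to 739 and 270 to 570 CPM and Cd9 at 249 to 405 and 230 to 306 CPM. Itgax, Cd36, Msr1 and Lilrb4a, which mark activated microglia and macrophages, did not exceed 0.180 CPM in any library.

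Ligands for microglial receptors, which neurons and other cells make, were tested for all 7 genes, with 3 differences above 0, 4 below and 0 called by limma. Cx3cl1, the neuronal ligand of Cx3cr1, stood at 202, 113 and 125 CPM (vehicle) and 413, 166 and 155 CPM (15-HETrE), with a log2 difference of 0.63 (SE 0.39, adjusted p 0.635, limma). Cd47, the signal that restrains engulfment, was level at 124 to 125 and 116 to 137 CPM. Csf1, a ligand of Csf1r, stood at 82.4 to 103 and 31.8 to 144 CPM. Tgfb1, the cytokine that sustains the homeostatic state, was singled out after its values were seen: it stood at 20.9, 25.9 and 20.7 CPM (vehicle) and 2.55, 3.82 and 5.001 CPM (15-HETrE), without overlap. Its log2 difference was -2.32 (SE 0.51, adjusted p 0.334, limma), and DESeq2 called it lower (adjusted p 0.00142).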

How the data were processed

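RNA of 6 libraries of sorted cells was measured by RNA-seq. The authors used mm10, HISAT2, Trimmomatic, edgeR and featureCounts, per the submitters' processing notes. Versions, settings and strand use were not stated in those sources. The authors deposited a signal, CPM with a size factor for each library (column sums of 960982 to 1080354). Dividing each column by its lowest value above 0 gave whole reads for 100% of values, within 1e-04 reads. Libraries were assigned by column name: vehicle 1, vehicle 2 and 15-HETrE 1 match sample titles, and the other 3 names give a group without a number. The number of other columns was 0.

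The 14523 genes whose mean reached 1 CPM entered limma 3.58.1 (R 4.3.3) as log2(CPM + 1), with group as the only term and a mean-variance trend. Tests were two-sided, and p-values were adjusted by Benjamini-Hochberg across these genes (threshold 0.05). The design had assumed plain CPM, and its test was kept for this scaled unit. Fold changes on this scale understate those of low genes. edgeR 4.0.16 and DESeq2 1.42.0 were run on the recovered reads as alternatives. The scripts were tested on simulated data. Standard deviations are over 3 libraries, in the unit named.

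The members and lists were chosen with earlier results of these data known. Values by library are given for the 2 or 3 members of each role with the highest mean, and for members with an unadjusted p under 0.05 or called by a count test; the other members are named with ranges or reads. Values of Gpnmb, Trem2, Tyrobp, Spi1, Aif1, Clec7a, Lyz2, Mpeg1, Selplg, Ptprc and the leukocyte genes beyond this rule were added after their values were seen. Of each further list the 3 most abundant are named, except some that are not reported here. All 41 members were placed on GRCm38 with GENCODE M21.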

Additional observations from a re-analysis of the deposited data

How the results depend on the processing

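No paired analysis was possible because only 1 of the 3 15-HETrE columns carries a replicate number, so the groups share fewer than 2 numbers. The alternatives were planned with earlier results known. Over all genes, 0 were called in the main test, with 0 also at pseudocounts of 0.5 and 5, without a filter, at a filter of 5 CPM and under both rescalings. Library weights called 1059 genes higher and 1366 lower, DESeq2 called 35 and 130, the name prefix as a batch term 1 and 7, and leaving out both combined libraries 0 and 75. Leaving out 1 library gave 0 to 0 genes higher and 0 to 45 lower, the latter without vehicle combined. Members called numbered 1 higher and 8 lower with library weights and 1 higher and 1 lower with DESeq2, and 0 when any 1 library was left out.

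The median over the members, -0.11, was 0.16 without a filter, -0.59 at a filter of 5 CPM, 0.20 without both combined libraries and 0.048 with library weights, and ran from -0.26 to 0.52 over the libraries left out. The homeostatic median was 1.05 with library weights, 0.082 with the prefix term and 0.21 to 1.21 with 1 library left out. The median of the Fc receptor and Trem2 genes, 0.46, was -0.32 with edgeR and -0.38 with DESeq2, 0.0022 with the prefix term, and -0.18 to 0.60 with 1 library left out. That of the pattern recognition genes was 0.20 without a filter and -1.02 to 0.31 with 1 library left out, that of the lineage genes -0.69 at a filter of 5 CPM, where fewer genes were tested, and -0.038 without 15-HETrE combined, and that of the phagocyte genes 0.29 with library weights and 0.021 with the prefix term. The difference between the homeostatic and injury-associated medians, 1.96, ran from 1.35 to 2.68 with 1 library left out and kept its sign in every alternative run. These medians include Siglech, Fcrls and Lgals3, whose direction the filter favoured. Without them the homeostatic median was 0.35 and the injury-associated median -1.42.

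Differences under the alternatives were computed for the members whose fold change the report gives. Among these, sign turned for Cd68 (0.29 with library weights, 0.021 with the prefix term), Sall1 (-0.084 with library weights), Gpnmb (-0.45 with edgeR, -0.50 with DESeq2, -0.061 with the prefix term, -0.35 to 1.06 with 1 library left out), P2ry13 (0.015 with library weights, 0.021 with the prefix term, -1.30 to 0.52 with 1 library left out), Inpp5d (-0.32 with edgeR, -0.38 with DESeq2, -0.18 to 1.46 with 1 library left out), Laptm5 (-0.58 with edgeR, -0.64 with DESeq2, -0.27 with the prefix term, -0.41 to 1.67 with 1 library left out) and Unc93b1 (0.20 without both combined libraries, -1.57 to 0.35 with 1 library left out). The cause was not tested. Depth limits the trace genes: 10 members were below the filter.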
